A study of Sinocyclocheilus angustiporus and Sinocyclocheilus anophthalmus with 4 samples.

Results

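Crystallins are the proteins that fill the fibre cells of the eye lens, and the 35 crystallin rows described here were taken from tables of 9649 rows by name alone. A row was kept where its name held the word crystallin in any case. The names stand under the heading gene homology, so they are names given by likeness. Which gene of these fish each row stands for was not checked. The single lambda crystallin row, an enzyme, was left out. Of the 35 rows, 30 were named for 1 of 6 subfamilies (alpha, beta A, beta B, gamma M, gamma N and gamma S). The other 5 were a gamma family fragment with no subfamily in its name, 3 heat shock proteins named as related to alpha crystallin, and a protein with a beta-gamma crystallin domain. No row was matched to alpha A crystallin.

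Whole eyes of adults of 2 Sinocyclocheilus species, freshwater relatives of the carp, had been examined by RNA sequencing. Sinocyclocheilus angustiporus is labelled as the surface fish and Sinocyclocheilus anophthalmus as the cavefish, and no allele, transgene or treatment is given for either. Each species had 1 eye library. The labels speak of 2 individuals per species without saying whether they were pooled, and the brain libraries of the series were not analysed here. There is thus no replicate, no error and no p-value for any difference below. Species, animal, dissection and sequencing instrument cannot be told apart.

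Values are RPKM, that is, reads divided by the length of the transcript and by the mapped reads of the library, so that levels of different crystallins can be compared within a library. Each comparison between eyes is log2((cavefish RPKM + 1) / (surface fish RPKM + 1)), called the log2 ratio, and a log2 ratio of at least 1 is called 2-fold higher. The depth behind the values is unknown, so no counting interval is given. The median log2 ratio of all rows was -0.27, and 2 rows took up 53.2% of all RPKM in surface fish and 62.6% in cavefish. A level in a whole eye falls both with fewer lens cells and with less RNA per lens cell, and these cannot be told apart.

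Alpha crystallins are small heat shock proteins that bind unfolding lens proteins. Beta and gamma crystallins share a common fold of Greek key motifs and give the lens its high protein content and refractive power. Beta crystallins assemble with each other, and gamma crystallins are monomers. Gamma M crystallins are rich in methionine and are known from fish, whose lens is dense and nearly spherical. In zebrafish the gamma M2 genes form a cluster of many similar copies. Gamma S is a gamma crystallin shared by lenses of land vertebrates and fish, and gamma N stands between the beta and gamma types in structure.

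Most crystallin rows had a higher level in cavefish, among them all gamma M2 rows and all beta B rows. The most abundant crystallin of both eyes, gamma S1, was lower on the deposited scale, with a log2 ratio of -0.38. Its log2 ratio was -0.11 both centred on the median of all rows and with equal totals without the 50 most abundant rows. It was -0.09 with a trimmed mean, and 0.02 with totals set equal without the crystallins and the 2 most abundant rows. Only under quantile normalization was it clearly above 0, at 0.60. That scaling sets each value by its rank alone, and gamma S1 stood at rank 5 of all rows in surface fish and 4 in cavefish. Of the 35 rows, 18 were 2-fold or more higher in cavefish, against 3.83% of all rows. Of these 18, 1 row, the small heat shock row b8, is listed because of its cavefish value. None was at least 2-fold lower, against 10.1% of all rows. A further 17 lay within 2-fold. With log2 ratios centred on the median of all rows, 22 crystallin rows were 2-fold or more higher, against 6.71% of all rows, and 0 were 2-fold or more lower, against 5.55%. The log2 ratio was above 0 for 28 crystallin rows and below 0 for 7, whereas 31.2% of all rows were above 0. The median log2 ratio was 1.06 over the crystallin rows, and 3.40% of all rows exceeded that value. On the deposited scale no crystallin row reached a log2 ratio of 2, as 0.601% of all rows did. With totals set equal without the crystallins and the 2 most abundant rows, gamma M2a (2.07) and gamma M2d16 (2.04) did. The share of all rows reaching 2 under that scaling was not computed. There 8.44% of all rows reached a log2 ratio of 1.

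Summed over its rows, the family differed by less than 2-fold on the deposited scale. The summed level of the 35 rows was 11314 RPKM in surface fish and 14161 RPKM in cavefish, a 1.25-fold difference. This was 1.65% of all RPKM in surface fish and 2.13% in cavefish. With the 2 most abundant rows left out of the total, the share was 3.53% and 5.69%, so the difference depends on the scaling. Without gamma S1, the rows of the 6 subfamilies summed to 7227 and 10984 RPKM, 1.52-fold more in cavefish. The count of 18 leaned on gamma M, which gave 11 of its members from 14 rows; with the gamma M rows summed to 1 value, 7 of 22 values were at least 2-fold higher and the median log2 ratio was 0.56.

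**Figure D1:**
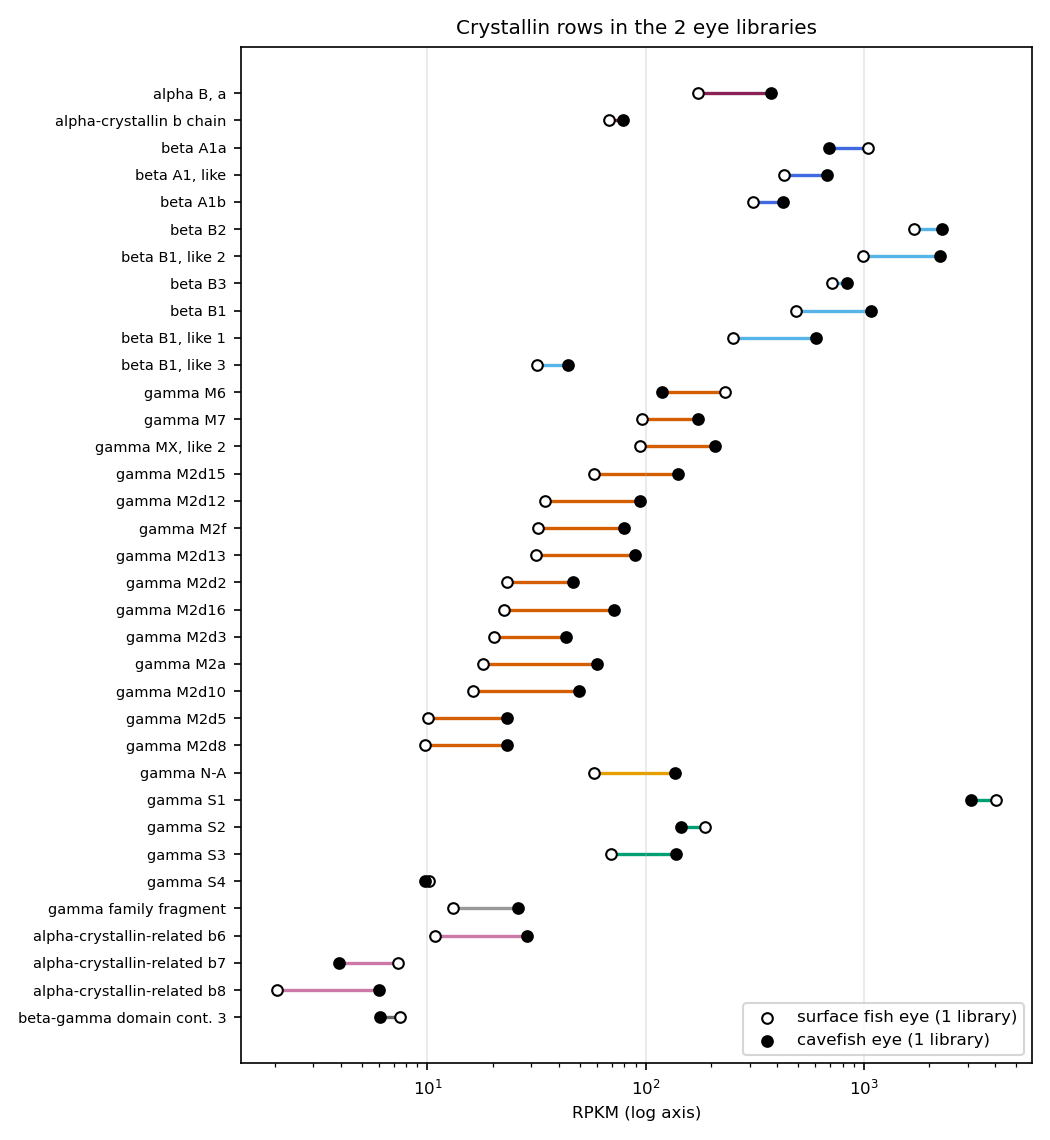
RPKM of each of the 35 crystallin rows on a log axis, open circles for the surface fish eye and filled circles for the cavefish eye, 1 library each, with the line coloured by subfamily. The filled circle lies to the right in 28 rows, and gamma S1, beta A1a, gamma M6 and gamma S2 are the most abundant rows where it lies to the left.

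The 2 alpha crystallin rows were unequal. Alpha B a stood at 173.1 RPKM in surface fish and 376.8 RPKM in cavefish, a log2 ratio of 1.12. The row named alpha-crystallin b chain stood at 67.7 and 78.4 RPKM, giving a log2 ratio of 0.21. The first row was thus 2.56 times the second in surface fish and 4.81 times in cavefish.

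The 3 small heat shock rows named as related to alpha crystallin were far lower in level than the alpha crystallins. The b6 row, whose mammalian counterpart HSPB6 is known from muscle, stood at 10.9 RPKM in surface fish and 28.5 RPKM in cavefish, a log2 ratio of 1.32. The b8 row, a partner of the BAG3 chaperone in mammals, stood at 2.04 and 5.98 RPKM (log2 ratio 1.20). The b7 row, known from heart and skeletal muscle in mammals, went the other way, at 7.33 and 3.92 RPKM (log2 ratio -0.76). No row of the tables has both values under 5 RPKM, so the b8 row is listed because of its cavefish value and the b7 row because of its surface fish value. Of 7 matched skeletal muscle rows, 6 were 2-fold or more higher in cavefish, against 3.83% of all rows. The 7 muscle rows summed to 716.2 RPKM in surface fish and 2064 RPKM in cavefish. Their part in these small heat shock values was not tested.

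The 3 beta A rows, acidic beta crystallins, did not share a direction. Beta A1a stood at 1052 RPKM in surface fish and 695.5 RPKM in cavefish, a log2 ratio of -0.60. Beta A1b stood at 311.1 and 424.7 RPKM, giving a log2 ratio of 0.45. The row named beta A1 like stood at 431.5 and 681.7 RPKM, giving a log2 ratio of 0.66. The level of beta A1a was 3.38 times that of beta A1b in surface fish and 1.64 times in cavefish. With beta A1a lower and the others higher, the sum of the subfamily was 1794 RPKM in surface fish and 1802 RPKM in cavefish.

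The 6 beta B rows, basic beta crystallins, were all higher in cavefish, under each scaling too, and the largest differences were those of 3 beta B1 rows. Beta B1 like 2 stood at 989.7 and 2230 RPKM in the surface fish and cavefish eyes, a log2 ratio of 1.17. Beta B1 stood at 488.1 and 1085 RPKM (log2 ratio 1.15), and beta B1 like 1 at 252.8 and 604.0 RPKM (log2 ratio 1.25). These 3 rows had almost the same fold difference although their levels spanned a wide range. Beta B1 like 3, the least abundant of the B1 rows, stood at 31.6 and 44.0 RPKM, giving a log2 ratio of 0.46.

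Beta B2 and beta B3 differed less than most B1 rows. Beta B2, the second most abundant crystallin of both eyes, stood at 1696 RPKM in surface fish and 2275 RPKM in cavefish, a log2 ratio of 0.42. Beta B3 stood at 712.2 and 838.4 RPKM, giving a log2 ratio of 0.23. As a result beta B2 had 1.71 times the level of beta B1 like 2 in surface fish and 1.02 times in cavefish. Summed, the 4 B1 rows stood at 1762 and 3962 RPKM, 2.25-fold more in cavefish, and B2 with B3 at 2409 and 3113 RPKM, 1.29-fold more.

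**Figure D2:**
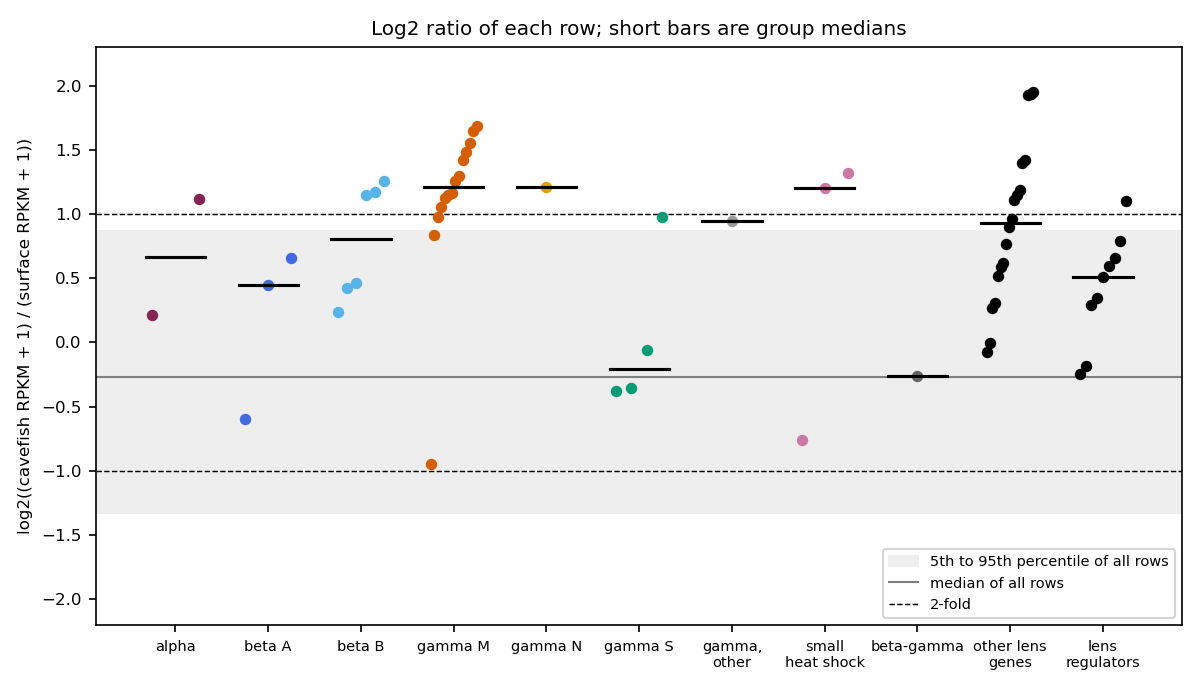
Log2 ratio of each crystallin row by subfamily, with 18 rows of other lens genes and 9 rows of lens regulators; short bars are medians, the grey band spans the 5th to the 95th percentile of all 9649 rows and dashed lines mark 2-fold. On this deposited scale 10 of 11 gamma M2 rows and 3 of 4 beta B1 rows lie above the upper dashed line, gamma M6 lies just above the lower one, and 3 of 4 gamma S rows lie below 0, a side that depends on the scaling.

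The 14 gamma M rows held the highest ratios of the family and also its lowest. All 11 gamma M2 rows were higher in cavefish, with log2 ratios between 0.97 and 1.68, and 10 of them were at least 2-fold higher. Gamma M2a had the highest ratio of all crystallin rows, at 17.96 RPKM in surface fish and 59.8 RPKM in cavefish (log2 ratio 1.68). Gamma M2d16 followed, at 22.4 and 72.0 RPKM (1.64). The most abundant M2 row, gamma M2d15, stood at 58.2 and 140.2 RPKM, giving a log2 ratio of 1.25. Next in level were gamma M2d12 at 34.6 and 94.2 RPKM (1.42), gamma M2d13 at 31.4 and 89.7 RPKM (1.49) and gamma M2f at 32.1 and 80.0 RPKM (1.29). The log2 ratios of these 4 rows lay between 1.25 and 1.49. Gamma M2d10 stood at 16.1 and 49.3 RPKM (1.55), while the least abundant rows, gamma M2d5 (10.1 and 23.1 RPKM, 1.12) and gamma M2d8 (9.77 and 23.1 RPKM, 1.16), had ratios near the low end of the M2 range.

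The M2 rows were individually modest in level, from 9.77 to 58.2 RPKM in surface fish and from 23.1 to 140.2 RPKM in cavefish. Together they summed to 275.9 and 721.0 RPKM, 2.61-fold more in cavefish. They are named as similar copies, and the sources used here do not say how reads matching several of them were divided. The 11 rows are therefore uncertain one by one and are not 11 independent observations. Gamma M2d2, at 23.3 and 46.7 RPKM, lay just under the 2-fold threshold only because of the pseudocount of 1 (log2 ratio 0.97), since its RPKM differed 2.005-fold. Gamma M2d3 lay just over it at 20.1 and 43.0 RPKM (1.06).

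The 3 other gamma M rows were more abundant than any single M2 row in surface fish. Gamma M6 was the exception of the subfamily, at 230.4 RPKM in surface fish and 118.8 RPKM in cavefish, a log2 ratio of -0.95 and the lowest of all crystallin rows. Gamma M7 stood at 96.3 and 173.3 RPKM (log2 ratio 0.84), and the row named gamma MX like 2 at 93.9 and 209.1 RPKM (1.15). Gamma M6 was 2.39 times gamma M7 in surface fish and 0.686 times in cavefish, so their order was reversed. It passed from the most abundant gamma M row to the fourth, behind gamma MX like 2, gamma M7 and gamma M2d15.

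Gamma N was represented by 1 row, gamma N-A, at 58.1 RPKM in surface fish and 135.8 RPKM in cavefish. Its log2 ratio was 1.21, equal to the gamma M median at this rounding. The gamma family fragment with no subfamily in its name stood at 13.1 and 26.1 RPKM, giving a log2 ratio of 0.95.

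Gamma S was the subfamily with the lowest median log2 ratio, -0.21 over 4 rows. Gamma S1 was the most abundant crystallin of both eyes, at 4046 RPKM in surface fish and 3107 RPKM in cavefish, a log2 ratio of -0.38. Gamma S2 stood at 186.5 and 145.4 RPKM (log2 ratio -0.36), and gamma S4 at 10.2 and 9.77 RPKM (-0.06). Gamma S3 differed from the others, at 69.6 and 137.8 RPKM, a log2 ratio of 0.98 that lay just under 2-fold.

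The direction of 3 gamma S rows depends on how the libraries are scaled. Over the 5 other scalings, the log2 ratio of gamma S1 ranged from -0.11 to 0.60, that of gamma S2 from -0.09 to 0.04 and that of gamma S4 from 0.16 to 0.31. The value of 0.60 is from quantile normalization, which sets each value by its rank alone. Gamma S1 was the fifth most abundant row of all 9649 in surface fish and the fourth in cavefish. Beta A1a (-0.33 to -0.08) and gamma M6 (-0.68 to -0.56) stayed below 0 under all 5. The beta-gamma crystallin domain containing 3 row, a protein not known as a lens crystallin, stood at 7.45 and 6.06 RPKM (log2 ratio -0.26), close to the median of all rows, and ranged from -0.07 to 0.09.

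**Figure D3:**
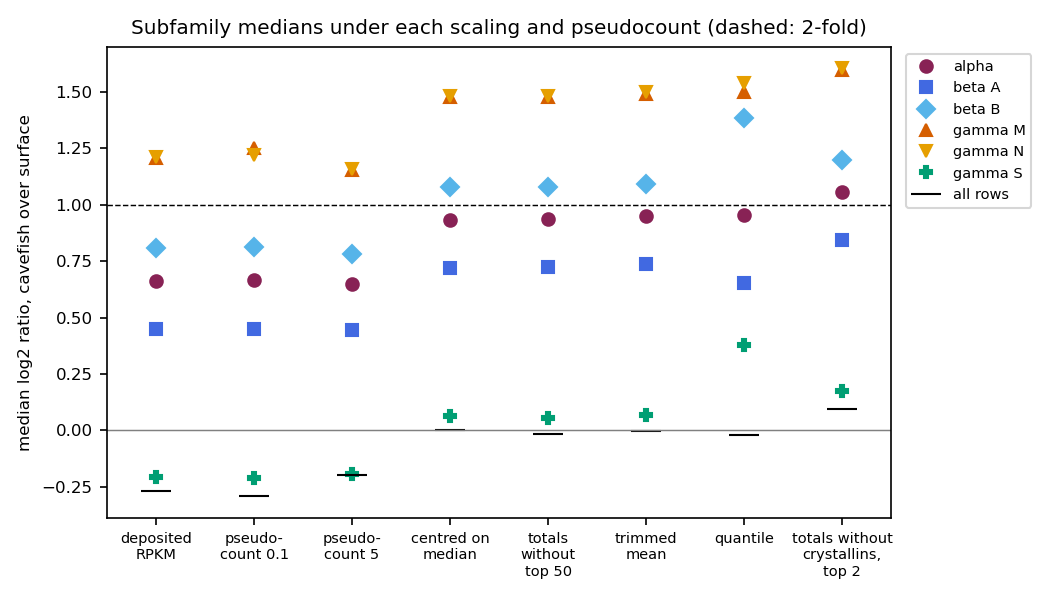
Median log2 ratio of each of the 6 subfamilies and of all rows on the deposited RPKM scale, with 2 other pseudocounts and under 5 other scalings, with 2-fold dashed. Gamma M and gamma N stay above 2-fold throughout, and gamma S passes from -0.21 on the deposited scale to between 0.05 and 0.38 under the other scalings.

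The makeup of the listed crystallin rows within each eye does not depend on a single scaling factor for the library. No listed row is named for alpha A, and all beta A rows are named A1. The shares are thus shares of the listed rows, not of all crystallin RNA of the eye. Beta B crystallins made up 36.9% of the summed crystallin RPKM in surface fish and 49.97% in cavefish. Gamma S made up 38.1% and 24.0%, and gamma S1 alone 35.8% and 21.9%. Beta A made up 15.9% and 12.7%, of which beta A1a held 9.30% and 4.91%. Gamma M made up 6.16% in surface fish and 8.63% in cavefish. The shares of alpha crystallins were 2.13% and 3.21%, and those of gamma N 0.514% and 0.959%.

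The listed beta rows together stood at 1.18 times the listed gamma M, gamma N and gamma S rows in surface fish and 1.87 times in cavefish. Gamma S1 had 4.09 times the level of beta B1 like 2 in surface fish and 1.39 times in cavefish. The 3 most abundant rows were gamma S1, beta B2 and beta A1a in surface fish, with 60.1% of the crystallin RPKM. In the cavefish eye they were gamma S1, beta B2 and beta B1 like 2, with 53.7%. Beta A1a passed from the third to the sixth place in the family and beta B1 from the sixth to the fourth. The order of the 35 rows was otherwise much alike, with a Spearman coefficient of 0.97 between the eyes; this is a description across rows, which are not replicates.

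**Figure D4:**
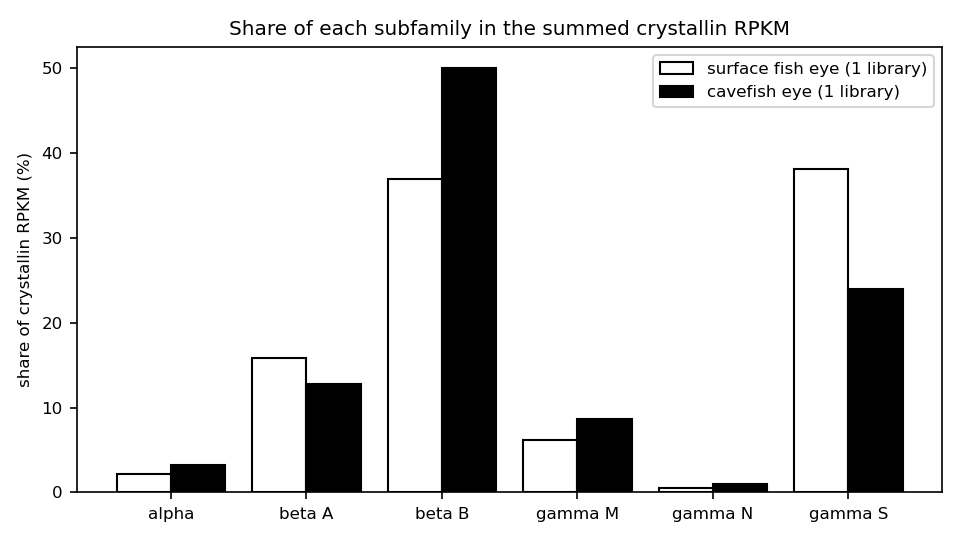
Share of each subfamily in the summed RPKM of the 35 crystallin rows (%), open bars for the surface fish eye and filled bars for the cavefish eye, 1 library each. Beta B holds 36.9% and 49.97%, and gamma S holds 38.1% and 24.0%.

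A rank among all rows depends on the other abundant rows as well as on the crystallins. Of the 10 most abundant rows, 1 was a crystallin in surface fish and 4 were crystallins in cavefish: gamma S1, beta B2, beta B1 like 2 and beta B1. Of the 100 most abundant rows, 7 and 10 were crystallins. Beta B1 stood at rank 60 of all rows in surface fish and at rank 9 in cavefish. Several mitochondrially encoded rows near the top were lower in cavefish, among them cytochrome c oxidase I at 6452 and 800.0 RPKM, cytochrome b at 2521 and 485.4 RPKM and cytochrome c oxidase II at 2078 and 834.2 RPKM. NADH dehydrogenase 1, 4, 4L, 5 and 6 were lower too, with 4L at 1027 and 382.5 RPKM. NADH dehydrogenase 3 was nearly level, at 53.8 and 53.1 RPKM. Cytochrome c oxidase III (898.5 and 2038 RPKM) and ATP synthase f0 subunit 6 (511.1 and 904.7 RPKM) were higher. So was NADH dehydrogenase 2 (101.1 and 365.2 RPKM), and no other matched mitochondrially encoded row was. Rhodopsin, the rod pigment, stood at 14606 and 4884 RPKM. In cavefish 9 of 10 matched rod rows and 7 of 8 cone rows were 2-fold or more lower, against 10.1% of all rows. The summed rod rows were 18960 and 6379 RPKM, and the summed cone rows 3684 and 1073 RPKM. The part of these rows in the crystallin ranks and ratios was not tested.

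Most rows listed for the lens outside the crystallins were higher in cavefish as well. The log2 ratio was above 0 in 16 of 18 rows, against 31.2% of all rows. Of 26 genes listed for lens fibre and epithelium, 16 were matched in 18 rows. None of the rows was 2-fold or more lower in cavefish, against 10.1% of all rows, and 8 were 2-fold or more higher, against 3.83%. Of these 8, 3 are listed because of their cavefish values: the connexin gene cx44.1 (0.99 and 6.62 RPKM), the connexin gene gja3 (2.5 and 12.3 RPKM) and heat shock protein beta-1 (3.73 and 9.46 RPKM). Of the 15 rows with both values at 5 RPKM or more, 5 were 2-fold or more higher, and their median log2 ratio was 0.76. The share of all rows under that same limit was not computed. Among all rows of at least 10 RPKM in both eyes, 2.65% were 2-fold or more higher. The median log2 ratio of the 18 rows was 0.93, and they summed to 1288 and 2521 RPKM, 1.96-fold more in cavefish. The lens fibre water channel mipa stood at 117.4 RPKM in surface fish and 315.4 RPKM in cavefish (log2 ratio 1.42), and the lens intrinsic membrane protein lim2.5 at 343.3 and 668.8 RPKM (0.96). The beaded filament gene bfsp1 stood at 124.5 and 269.7 RPKM (1.11) in its more abundant row, and lim2.2 at 128.1 and 239.9 RPKM (0.90). Vimentin, also made outside the lens, stood at 129.5 and 122.6 RPKM (-0.08). The list was not limited to genes made in the lens alone, and it also held nrl, tdrd7a and hspb1. As a sum the 18 rows were 1.96-fold more in cavefish. The sum of all 35 crystallin rows was 1.25-fold more in cavefish. Among the crystallins, the gamma M2 sum was 2.61-fold more in cavefish, and the gamma S sum was 0.788 times that of surface fish.

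Of 14 listed regulators of lens and eye development, 9 were matched, and 1 was at least 2-fold higher, against 3.83% of all rows. That gene, sox2, which acts with Pax6 on the delta crystallin enhancer in chick, stood at 11.6 RPKM in surface fish and 26.1 RPKM in cavefish (log2 ratio 1.10). The paired box gene pax6a stood at 53.7 and 81.8 RPKM (0.60) and pax6b at 52.3 and 45.9 RPKM (-0.18). The transcription factor gene mafb stood at 86.5 and 72.7 RPKM (-0.25), and six3a at 26.3 and 37.9 RPKM (0.51). The fibre cell factor hsf4, known in mammals for activating small heat shock and crystallin genes, stood at 3.52 and 6.83 RPKM (0.79), and is listed because of its cavefish value. Over the 9 rows the median log2 ratio was 0.51, with 7 above 0 and 2 below, whereas 31.2% of all rows were above 0. Most of these genes are also made in the retina.

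Among the surrounding tissues, markers of the cornea and skin were lower on the deposited scale, and those of the pigment epithelium differed little there. Of 9 matched cornea and skin rows, 5 were 2-fold or more lower in cavefish, against 10.1% of all rows. Of these 5, epcam (74.1 and 4.46 RPKM) is listed because of its surface fish value. So is cdh1 (7.73 and 3.97 RPKM), which is not among the 5. The log2 ratios of tkt (-0.27) and krt8 (-0.11) lay above or level with the median of all rows. The 9 rows summed to 1828 and 793.6 RPKM, of which tkt held 621.4 and 515.5 RPKM. Of 7 pigment epithelium rows none was past 2-fold on the deposited scale, against 3.83% of all rows higher and 10.1% lower. With log2 ratios centred on the median of all rows, 1 was 2-fold or more higher, against 6.71% of all rows. That row, tyr (4.77 and 9.46 RPKM), is listed because of its cavefish value. The 7 rows summed to 466.1 and 462.5 RPKM. The part of these tissues in the crystallin ratios was not tested.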

How the data were processed

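The 2 tables deposited by the authors hold RPKM, per the file headers, for whole eyes of a surface fish and a cavefish, 1 library each, with the same 9649 row names. Per the labels' protocols, polyadenylated RNA was sequenced in pairs on 1 of 2 Illumina instruments, without saying which library ran on which. Per the submitters' processing notes Bowtie 0.12.2 was used, in a role not stated there. The sources used here give neither the reference nor transcript lengths nor the treatment of multiply matching reads, so a difference between species in how reads matched cannot be told apart from one in RNA. No row had both values under 5 RPKM, so rows low in both eyes are missing. Depth is unknown.

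Members were chosen by row name, and the members and lists were chosen with earlier results of these data known. All member rows could be named. In other lists the 4 members with the largest values were named. Vimentin, nrl, tdrd7a, hspb1, sox2, hsf4, cx44.1, gja3, heat shock protein beta-1, epcam, cdh1, tyr and the mitochondrial rows given above were also named. They were singled out after their values were seen. List genes were matched by descriptive name. Log2 ratios used a pseudocount of 1, with no further filter and no test; the computation was tested on simulated data. Alternatives were pseudocounts of 0.1 and 5, 5 scalings (centring on the median, equal totals without the 50 most abundant rows, a trimmed mean, quantile normalization, equal totals without crystallins and the 2 most abundant rows), filters at 10 RPKM, a 4-fold threshold, and summed rows. Sequences are not shown. Python 3.11.15, numpy 2.4.6, pandas 2.3.3 and matplotlib 3.10.9 were used.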

Additional observations from a re-analysis of the deposited data

How the results depend on the processing

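No paired analysis was possible because each species had 1 eye library, and leaving out a replicate was not possible for the same reason. The count of 18 crystallin rows at least 2-fold higher stayed between 14 and 24 with other pseudocounts, scalings and filters. The share of all rows 2-fold or more higher moved as well. It was 1.79% at the count of 14 (pseudocount of 5) and 6.19% at 24 (quantile normalization). With equal totals without crystallins and the 2 most abundant rows it was highest, at 8.44%, and the count was 23. No crystallin row was 2-fold lower in any of these settings, against 4.81% to 13.4% of all rows. The count of 18 became 0 at 4-fold, against 0.601% of all rows. It was 7 of 22 values with the gamma M rows summed and 1 of 9 with each subfamily summed. The log2 ratios of the sums, on the deposited scale with no pseudocount, were 0.81 for gamma M, 0.76 for beta B, 0.92 for alpha, 0.01 for beta A and -0.34 for gamma S. These lay within 2-fold, and gamma N, a single row, lay past it at 1.22. The median log2 ratio of all rows on this scale was -0.27. The sums were not recomputed under the other scalings, so which of them pass 2-fold can depend on the scaling. The median log2 ratio of 1.06 was 1.09 and 0.90 with pseudocounts of 0.1 and 5. It was 1.33 centred on the median of all rows and also 1.33 with equal totals without the 50 most abundant rows. It was 1.34 with a trimmed mean, 1.30 with quantile normalization and 1.45 with equal totals without crystallins and the 2 most abundant rows. It was 1.09 with each filter at 10 RPKM and, chosen after seeing the data, with the rows of the 6 subfamilies alone. It was 0.56 with the gamma M rows summed and 0.81 with each subfamily summed. The crystallin share of all RPKM, 1.65% in surface fish and 2.13% in cavefish, was 3.53% and 5.69% without the 2 most abundant rows, and 1.69% and 2.15% without mitochondrially encoded rows. Across 7 pseudocounts and scalings, 14 of the 18 rows stayed at least 2-fold higher and 4 of 35 rows changed sign (gamma S1, gamma S2, gamma S4 and the beta-gamma domain row). The unknown depth limits the rows under 10 RPKM most.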
